A study of Mus musculus with 4 samples.

Results

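The genes described are those of major histocompatibility complex (MHC) class II presentation in mouse CD4+ T cell cultures. They comprise the class II chain genes H2-Aa, H2-Ab1 and H2-Eb1, the invariant chain gene Cd74, the peptide exchange factor genes H2-DMa and H2-DMb1, and Ciita, the class II transactivator. They were chosen by name and matched to Ensembl IDs through GENCODE M21, and all 7 were found among the 38282 genes of each table. RNA came from cultures of naive CD4+ T cells from C57BL/6 mouse spleen, kept under the Th0 condition with dopamine (Th0+Dopa) or under the Th0 condition alone (Th0), and harvested on day 4. Each group held 2 libraries, numbered 2 and 3. The sources used here state neither the dopamine dose nor the age of the mice, and the genotype is given only as the strain.

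Class II molecules carry peptides from endocytosed protein to the surface, where CD4+ T cells read them. An alpha and a beta chain pair in the endoplasmic reticulum around the invariant chain, which fills the groove and directs the complex to endosomes. There proteases trim the invariant chain to a short peptide, and the H2-M dimer, made from H2-DMa and H2-DMb1 or its near copy H2-DMb2, swaps that peptide for antigen. Ciita does not bind DNA itself but is recruited to an enhanceosome of RFX, CREB and NF-Y factors on the X and Y boxes of class II promoters. B cells, dendritic cells and macrophages are the main producers of class II in the mouse, and conventional mouse T cells make little. C57BL/6 mice carry a defective I-E alpha gene, so that the H2-Eb1 chain has no I-E partner for surface display.

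The 3 class II chain genes fell with dopamine. H2-Aa, H2-Ab1 and H2-Eb1 stood at 28.9% to 44.0% of their Th0 level, Cd74 and H2-DMb1 were at 51.5% to 64.9% without passing the test, and Ciita was at 34.1% and 31.5% at a level too low to be tested. H2-DMa stood apart from the others, at 126% and 115% of its Th0 level, a difference that did not pass either. Of the 6 tested members, 3 were called lower and 0 higher, where 4.39% of all 11423 tested genes were called lower and 6.28% higher. The median difference of the 6 was -0.996 on the log2 scale, beside 0.03 for all tested genes. The members were chosen with earlier results of these data known, so these comparisons are descriptions. In these bulk cultures, fewer cells of a type and less RNA per cell cannot be told apart.

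Levels are in FPKM, a fragment count scaled by transcript length and by library size. Differences are on log2(FPKM + 1), Th0+Dopa minus Th0, taken within a table and averaged over the 2 tables, with the standard error (SE) after ±. A call is an adjusted p under 0.05 in limma, with Benjamini-Hochberg adjustment over all tested genes. Statements that groups did not overlap are descriptions, since an exact two-sided permutation test of 2 libraries against 2 cannot go below 0.333. The share of all tested genes whose groups did not overlap is not given here. Summed FPKM ran from 794873 to 880583 in Th0+Dopa libraries and from 687066 to 715110 in Th0 libraries. Mitochondrial genes took 1.55% and 3.35% of it in Th0+Dopa and 5.64% and 8.41% in Th0. Scaling each library to the same FPKM sum (a common sum) moved the median of all genes to -0.20, and 26.1% of calls were then higher, against 58.9% as deposited. All 13 T cell markers were tested, and their summed FPKM was 2302 to 2485 in Th0+Dopa and 2412 to 2433 in Th0.

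**Figure D1:**
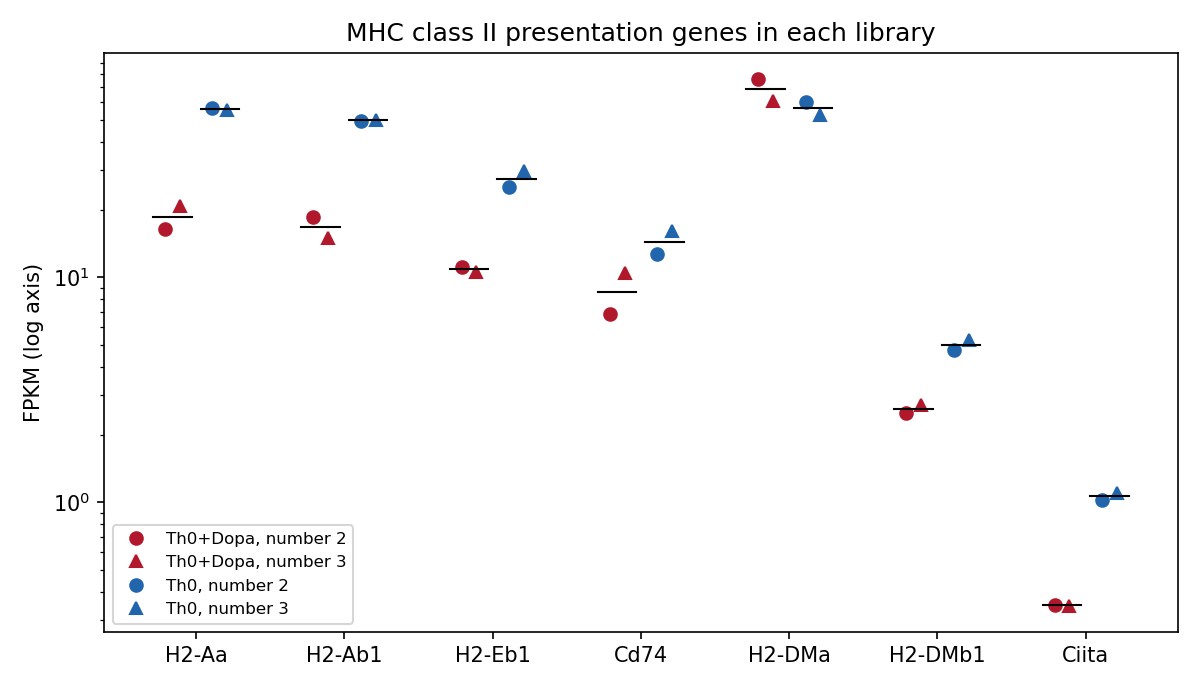
FPKM of the 7 class II presentation genes in each library on a log axis, with Th0+Dopa (red) left of Th0 (blue), circles for libraries numbered 2, triangles for those numbered 3, and bars for group means. H2-DMa is higher in both Th0+Dopa libraries (61.0 and 76.0 FPKM) than in either Th0 library, and the other 6 genes are lower. With 2 libraries per group this separation is a description, not a test.

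The promoters of H2-Aa and H2-Eb1, whose transcripts fell together, are shown because class II promoters are where Ciita acts. Both are the 120 bases before the transcription start in RefSeq's GRCm38.p6 table, 5′ to 3′ on the gene's strand. H2-Aa lies at chr17:34287824-34287943 on the minus strand and H2-Eb1 at chr17:34305747-34305866 on the plus strand. Capitals mark matches to the Y box letters GATTGG or the X box letters AGNNACNGA, searched on both strands in the 250 bases before the start. No match overlaps another here.
H2-Aa: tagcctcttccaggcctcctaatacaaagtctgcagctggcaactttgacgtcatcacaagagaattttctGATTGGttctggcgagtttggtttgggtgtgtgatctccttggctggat
H2-Eb1: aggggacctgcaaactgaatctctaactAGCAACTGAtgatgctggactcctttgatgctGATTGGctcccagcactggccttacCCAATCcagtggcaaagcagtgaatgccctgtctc

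The H2-Aa window holds the Y box letters 49 to 44 bases before the start and no match to the X letters. H2-Eb1 holds the X letters at 92 to 84 bases and the Y letters at 60 to 55 bases, with a reverse-strand Y match at 35 to 30 bases. Of the members, 4 have a promoter in the table. H2-DMb1 holds AGTAACTGA at 95 to 87 bases, GATTGG at 62 to 57 bases and a reverse-strand X match at 163 to 155 bases before its RefSeq start, 34153191. GENCODE starts H2-DMb1 at 34153072, so that by GENCODE the AGTAACTGA and GATTGG matches lie inside the transcript and not before it. Each motif alone is common, since 14.6% of the 32851 promoters hold the Y letters and 14.7% the X letters. The X letters followed on the same strand by the Y letters 10 to 30 bases on were found in 16 promoters (0.0487%), among them those of H2-Eb1, H2-DMb1 and the class II gene H2-Eb2. A match is a description of letters, not evidence of binding. Looser forms of the boxes were not searched, so a window without a match can still hold a box.

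H2-DMa has widely spaced annotated starts, as do Ciita and H2-Ab1. GENCODE transcripts of H2-DMa start at, among other places, 34122832 on chromosome 17, beside the gene Brd2 on the opposite strand, and 34135628, which is 12796 bases downstream. The 250 bases before the upstream start hold no match to the X or the Y letters. The RefSeq table's window at another H2-DMa start, 34125518, holds GATTGG at 199 to 194 bases. The deposited value sums all transcripts of the gene, so the use of the starts was not measured.

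H2-Aa encodes the alpha chain of I-A, the class II molecule that C57BL/6 cells display. It had 16.3 and 20.9 FPKM in the Th0+Dopa libraries (numbers 2 and 3), against 56.6 and 55.6 FPKM in the Th0 libraries. The groups did not overlap, and the Th0 libraries lay closer together than the Th0+Dopa ones. H2-Aa fell by 1.55 ± 0.14 (limma adjusted p = 0.00370). Its gene lies on chromosome 17 from 34282744 to 34287823.

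H2-Ab1 encodes the I-A beta chain and lies on chromosome 17 from 34257689 to 34269419. Its values were 18.7 and 15.0 FPKM in Th0+Dopa, against 49.7 and 50.2 FPKM in Th0. Again the groups did not overlap, and the Th0+Dopa library numbered 3 was the lower of its group, where for H2-Aa it was the higher. H2-Ab1 fell by 1.53 ± 0.14 (limma adjusted p = 0.00370).

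H2-Eb1 encodes the I-E beta chain and lies on chromosome 17 from 34305867 to 34316674. It had 11.1 and 10.6 FPKM in Th0+Dopa libraries, against 25.3 and 29.7 FPKM in Th0 libraries. Both Th0+Dopa values lay below both Th0 values, and H2-Eb1 fell by 1.26 ± 0.15 (limma adjusted p = 0.00814). Without limma's variance trend, the adjusted p of H2-Eb1 was 0.0582, and H2-Aa and H2-Ab1 passed narrowly (limma adjusted p = 0.0492 and 0.0471). The 3 chain genes ranked 206th, 213th and 291st from the lowest difference among 11423 genes. Summed over the 3 genes, FPKM was 46.1 and 46.4 in Th0+Dopa and 132 and 135 in Th0. In fits that left out 1 library, which have 1 residual degree of freedom, none of the 3 passed (adjusted p = 0.0882 to 0.245), with falls of 1.18 to 1.73.

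Cd74 encodes the invariant chain and lies on chromosome 18 from 60803848 to 60812652. Its FPKM was 6.86 and 10.4 in Th0+Dopa and 12.7 and 16.1 in Th0. Each Th0+Dopa value lay below both Th0 values, with a smaller gap than for the chain genes. The log2 difference was -0.69 ± 0.16 (limma adjusted p = 0.0530), just outside the threshold. Cd74 passed under common-sum scaling (-0.92 ± 0.21, adjusted p = 0.0325) and with a pseudocount of 0.1 (-0.75 ± 0.18, adjusted p = 0.0334), so its call depends on these settings. Without Th0+Dopa 2 its difference was -0.46, and without Th0+Dopa 3 it was -0.98.

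**Figure D2:**
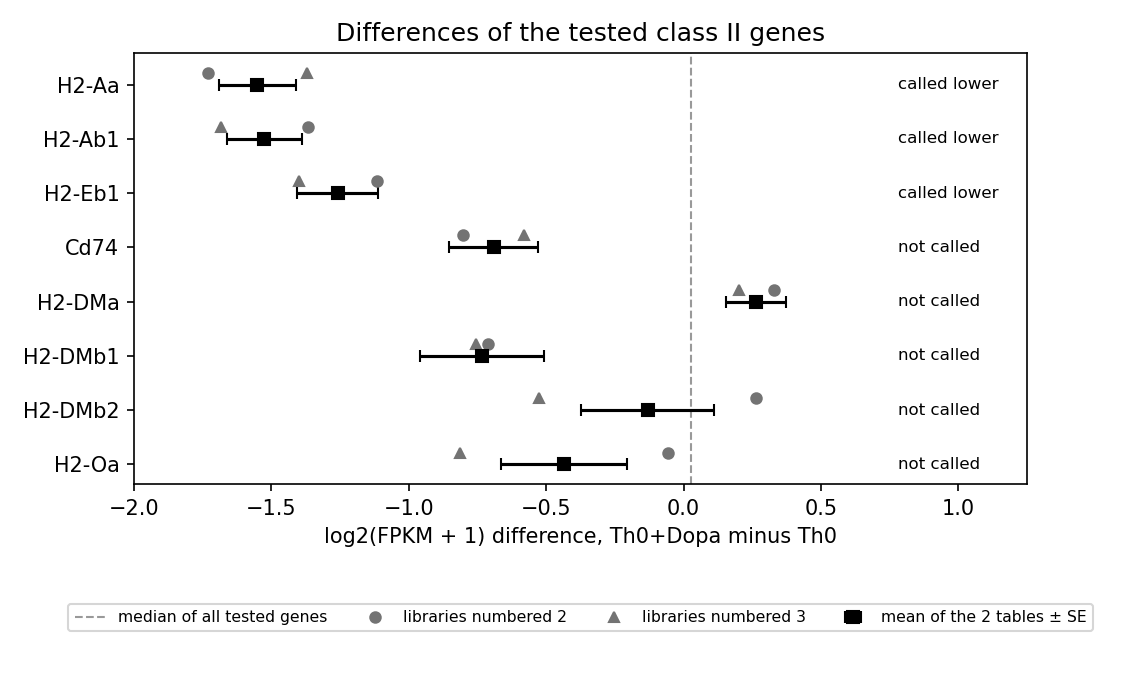
Difference in log2(FPKM + 1), Th0+Dopa minus Th0, for the 6 tested members and the 2 other tested class II genes: squares with bars are the mean over both tables ± SE from limma, circles and triangles are libraries numbered 2 and 3, and the dashed line is the median of all tested genes. H2-Aa, H2-Ab1 and H2-Eb1 lie between -1.55 and -1.26, and H2-DMa alone of the members lies above 0, with its call not past the threshold.

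H2-DMa and H2-DMb1 encode the chains of the peptide exchange factor and lie near each other on chromosome 17. H2-DMa (34119541 to 34139101) had 76.0 and 61.0 FPKM in Th0+Dopa, against 60.3 and 52.9 FPKM in Th0. Both Th0+Dopa values were above both Th0 values, and the lowest Th0+Dopa value was close to the highest Th0 value. The difference was 0.26 ± 0.11 (limma adjusted p = 0.188). It was 0.01 ± 0.13 under common-sum scaling and 0.07 ± 0.09 once GC content and transcript length were corrected for. Brd2, the opposite-strand gene that overlaps H2-DMa by its bounds, had 71.3 and 81.8 FPKM in Th0+Dopa and 101 and 114 FPKM in Th0. No source used here says whether counting used strand, so reads of the overlap cannot be told apart.

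H2-DMb1 (34153072 to 34160230) had 2.51 and 2.72 FPKM in Th0+Dopa, against 4.74 and 5.28 FPKM in Th0. The groups did not overlap, and libraries within a group lay close together. Its difference was -0.73 ± 0.23 (limma adjusted p = 0.103). It passed only where small RNA and mitochondrial genes were left out before scaling to a common sum (-0.91 ± 0.22, adjusted p = 0.0497). H2-DMb2, the near copy, had 8.86 and 5.83 FPKM in Th0+Dopa and 7.21 and 8.83 FPKM in Th0, which overlap, with a difference of -0.13 ± 0.24 (adjusted p = 0.771). Windows of 50 bases shared between the copies made up 22.7% of those in H2-DMb1 transcripts, so the split of reads between them is uncertain.

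Ciita lies on chromosome 16 from 10480059 to 10528418 and its transcripts start at several promoters, which in the mouse serve dendritic cells and macrophages, B cells and the response to interferon-gamma. Its FPKM was 0.3499 and 0.348 in Th0+Dopa, against 1.03 and 1.10 in Th0. Libraries within a group lay close together, and the groups did not overlap. Dexi, an opposite-strand gene that overlaps Ciita, had 6.00 and 5.95 FPKM in Th0+Dopa and 5.36 and 6.21 FPKM in Th0, and reads of the overlap cannot be told apart here either. The mean of 0.706 FPKM lay under the filter of 1, so that Ciita was not tested with the others. With no filter on low values its difference was -0.61 ± 0.25 (limma adjusted p = 0.290, over 22356 genes). By the estimate of depth given under the methods, these values rest on about 7 fragments in each Th0+Dopa library and about 18 to 23 in each Th0 library. H2-DMb1 rested on about 13 to 15 and 22 to 26 fragments, and the chain genes on about 72 or more in every library.

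FPKM is per length, so levels can be ordered across genes. In Th0+Dopa the order by mean was H2-DMa (68.5 ± 10.6 FPKM, SD, n = 2), H2-Aa (18.6 ± 3.20), H2-Ab1 (16.8 ± 2.60), H2-Eb1 (10.9 ± 0.379), Cd74 (8.64 ± 2.52), H2-DMb1 (2.61 ± 0.151) and Ciita (0.349 ± 0.00165). In Th0 it was H2-DMa (56.6 ± 5.19 FPKM, SD, n = 2), H2-Aa (56.1 ± 0.715), H2-Ab1 (49.99 ± 0.347), H2-Eb1 (27.5 ± 3.05), Cd74 (14.4 ± 2.36), H2-DMb1 (5.01 ± 0.377) and Ciita (1.06 ± 0.0539). These means cross tables made separately. The order of the genes was the same in both groups. Neighbours whose libraries overlapped were H2-Aa and H2-Ab1 in Th0+Dopa, and H2-DMa and H2-Aa in Th0.

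Ratios of FPKM within a library are free of library scaling. H2-DMa over H2-Ab1 was 4.07 in both Th0+Dopa libraries, against 1.21 and 1.05 in Th0 (numbers 2 and 3). Cd74 over H2-Ab1 was 0.368 and 0.696 in Th0+Dopa and 0.256 and 0.320 in Th0. H2-DMb1 over H2-Ab1 was 0.134 and 0.182 in Th0+Dopa and 0.0954 and 0.105 in Th0. In these 3 ratios the groups did not overlap, so H2-Ab1 was lower relative to each partner in both Th0+Dopa libraries. H2-Aa over H2-Ab1 (0.876 and 1.39 in Th0+Dopa, 1.14 and 1.11 in Th0) overlapped, as did Ciita over H2-Ab1 (0.0188 and 0.0232 in Th0+Dopa, 0.0206 and 0.0219 in Th0). With 2 libraries against 2, an exact two-sided permutation test cannot go below 0.333, so the ratios are descriptions.

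**Figure D3:**
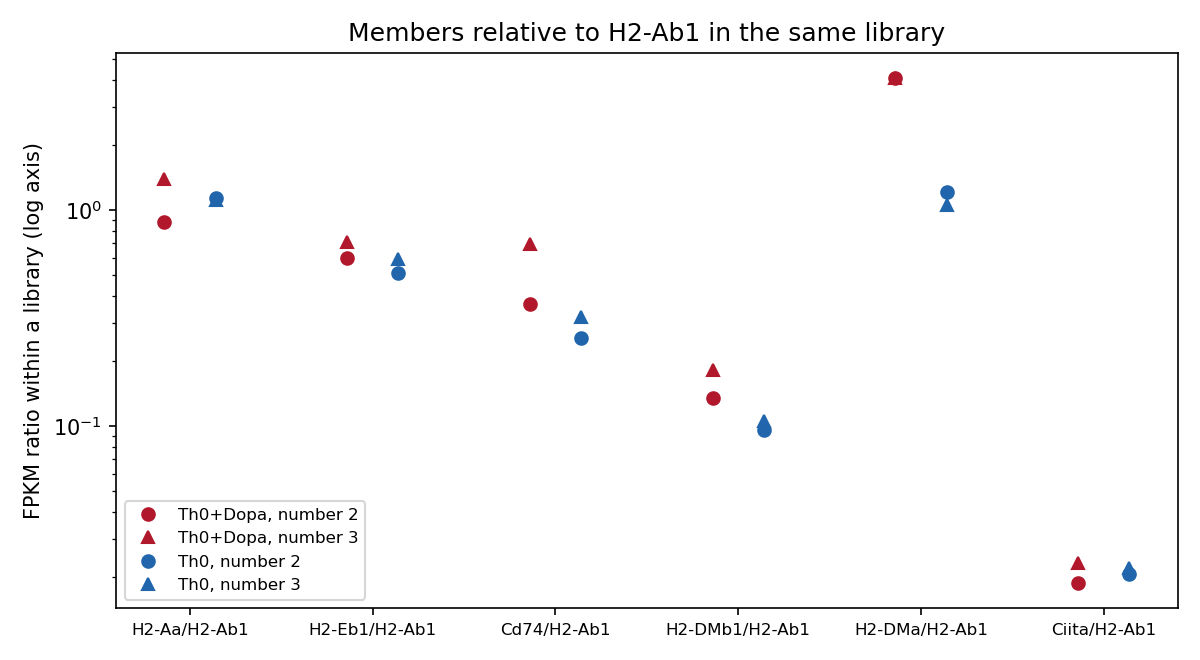
FPKM of 6 members divided by that of H2-Ab1 in the same library, on a log axis, with Th0+Dopa (red) left of Th0 (blue), circles for libraries numbered 2 and triangles for those numbered 3. H2-DMa over H2-Ab1 separates the groups most (4.07 in both Th0+Dopa libraries, 1.05 and 1.21 in Th0), while H2-Aa and Ciita over H2-Ab1 overlap.

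Other class II genes gave no call. H2-Oa, the alpha chain of the H2-O molecule that restrains H2-M, had 11.8 and 4.71 FPKM in Th0+Dopa and 12.3 and 9.03 FPKM in Th0 (-0.43 ± 0.23, limma adjusted p = 0.278). H2-Ob, its beta chain, was at 1.53 and 0.653 FPKM in Th0+Dopa and at 0.289 and 0.598 FPKM in Th0, under the filter. H2-Eb2 did not exceed 0.215 FPKM in any library, and the I-E alpha pseudogene H2-Ea-ps was listed at 0 in all 4.

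The factors that sit on class II promoters showed 0 calls in limma among 7 tested, with a median of -0.02. Over all 11423 tested genes, 4.39% were called lower and 6.28% higher. Of the 7, 1 (Nfyb) had an unadjusted p under 0.05, as did 3177 of all tested genes. Under common-sum scaling 1 of the 7 was called lower and the median was -0.25. Over all 11423 tested genes 1064 were then called lower, and the median was -0.20. Rfx5, the large RFX subunit, had 9.04 and 9.96 FPKM in Th0+Dopa and 7.61 and 5.51 FPKM in Th0 (0.49 ± 0.21, limma adjusted p = 0.195). Rfxank had 0.04 ± 0.28 (adjusted p = 0.943) and Nfya, a subunit of NF-Y, -0.02 ± 0.18 (adjusted p = 0.953). Rfxap (-0.36 ± 0.22, adjusted p = 0.354), Nfyb (-0.37 ± 0.13, adjusted p = 0.131) and Creb1 (-0.20 ± 0.15, adjusted p = 0.447) did not pass. Nfyc had 0.19 ± 0.24 (adjusted p = 0.646).

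Of 11 genes known to regulate Ciita, 3 rose and 1 fell (6.28% and 4.39% over all tested genes), with a median of -0.11. This balance turned with the scaling: 1 was called higher and 3 lower under common-sum scaling (median -0.36). Where small RNA and mitochondrial genes were left out first, 2 were called higher and 4 lower (median -0.33). Calls over all tested genes turned as well, to 376 higher and 1064 lower of 11423 under the first scaling. Under the second they were 386 higher and 1256 lower of 11184. Spi1, the PU.1 factor of myeloid and B cells, had 0.736 and 0.944 FPKM in Th0+Dopa and 5.57 and 6.70 FPKM in Th0 and fell by 1.95 ± 0.25 (limma adjusted p = 0.0108). Socs1, an inhibitor of Janus kinases that restrains interferon-gamma signalling, had 60.6 and 40.5 FPKM in Th0+Dopa and 19.7 and 20.6 FPKM in Th0 and rose by 1.26 ± 0.18 (adjusted p = 0.0142). Corrected for GC content and length, Socs1 had 0.98 ± 0.20 (adjusted p = 0.0629). Irf8 rose by 0.71 ± 0.11 and Irf4 by 0.51 ± 0.11 (adjusted p = 0.0156 and 0.0419), but neither passed under common-sum scaling (0.46 ± 0.14 and 0.26 ± 0.12, adjusted p = 0.0728 and 0.207). Irf1, a factor through which interferon-gamma induces Ciita, had 239 and 210 FPKM in Th0+Dopa and 231 and 251 FPKM in Th0, which overlap (-0.11 ± 0.12, adjusted p = 0.611). The kinase genes Jak1 and Jak2, which signal for the interferon-gamma receptor, were lower in both Th0+Dopa libraries without passing (-0.46 ± 0.11 and -0.44 ± 0.11, adjusted p = 0.0547 and 0.0586).

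Of 12 tested interferon-gamma response genes, 4 rose and 0 fell (6.28% and 4.39% over all tested genes), with a median of 0.17. They were the GTPase genes Igtp (0.55 ± 0.11), Irgm1 (0.53 ± 0.11) and Gbp4 (0.50 ± 0.11) and the peptide transporter subunit Tap2 (0.65 ± 0.11), with limma adjusted p from 0.0234 to 0.0438. Under common-sum scaling 0 of the 4 passed, with differences from 0.25 to 0.39, and the list held 0 higher and 1 lower calls with a median of -0.08. With small RNA and mitochondrial genes left out first it held 1 higher and 2 lower calls with a median of -0.05. The direction of the list therefore depends on the scaling, as does that of all tested genes. Those gave 376 higher and 1064 lower calls of 11423 under a common sum. With small RNA and mitochondrial genes left out first they gave 386 higher and 1256 lower of 11184. Without limma's variance trend the list held 0 calls, where 256 of 11423 tested genes were called. The chemokine gene Cxcl10 (-0.998 ± 0.29, adjusted p = 0.0901) and B2m, the light chain of MHC class I (-0.45 ± 0.14, adjusted p = 0.115), were lower in both Th0+Dopa libraries without passing. The chemokine gene Cxcl9, under the filter, had 0.324 and 0.161 FPKM in Th0+Dopa and 0.895 and 1.26 FPKM in Th0. Nlrc5, the transactivator of MHC class I and a relative of Ciita, had 32.0 and 39.2 FPKM in Th0+Dopa and 36.0 and 36.3 FPKM in Th0 (-0.03 ± 0.13, adjusted p = 0.914).

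Among 16 tested genes of class II peptide processing and turnover, 6 fell and 0 rose, with a median of -0.39. Over all tested genes 4.39% fell and 6.28% rose. Over the fits to all 4 libraries, the falls numbered from 2 (no replicate block) to 9 (small RNA and mitochondrial genes left out first). In those settings, in that order, 240 of 11423 and 1256 of 11184 tested genes were called lower. Ctss, the protease that makes the last cut in the invariant chain, had 29.1 and 25.0 FPKM in Th0+Dopa and 102 and 138 FPKM in Th0. It fell by 2.10 ± 0.17 (limma adjusted p = 0.00301). March1, a ubiquitin ligase that removes class II from the surface, had 0.0782 and 0.586 FPKM in Th0+Dopa and 2.49 and 4.03 FPKM in Th0 and fell by 1.68 ± 0.31 (adjusted p = 0.0297).

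Cd83, which opposes that ligase, fell by 0.86 ± 0.19 (limma adjusted p = 0.0446), the tetraspanin Cd63 fell by 2.62 ± 0.21, and the cathepsins Ctsh and Ctsz had differences of -1.51 ± 0.29 and -0.55 ± 0.12 and were both called. Corrected for GC content and length, Ctsh, March1 and Cd83 were not called (adjusted p = 0.0512, 0.0552 and 0.0729). Among the 10 genes of this list that were not called, Ctsd had 69.8 and 59.4 FPKM in Th0+Dopa and 69.9 and 76.6 FPKM in Th0, and Ifi30, the lysosomal thiol reductase, 53.2 and 43.6 FPKM in Th0+Dopa and 60.6 and 69.5 FPKM in Th0.

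Of 5 tested costimulatory genes of antigen presenting cells, 3 fell and 0 rose (4.39% and 6.28% over all tested genes). Cd40, the receptor for T cell help, had 1.93 and 1.82 FPKM in Th0+Dopa and 9.35 and 8.97 FPKM in Th0 and fell by 1.82 ± 0.21 (limma adjusted p = 0.00773). Cd86 and Cd80, the ligands of CD28, both fell, with differences of -1.61 ± 0.25 and -1.33 ± 0.22 (adjusted p = 0.0186 and 0.0214). With no filter on low values neither passed (adjusted p = 0.0509 and 0.0526). Cd274, which encodes PD-L1 and which T cells express as well, had -0.14 ± 0.14 (adjusted p = 0.545).

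**Figure D4:**
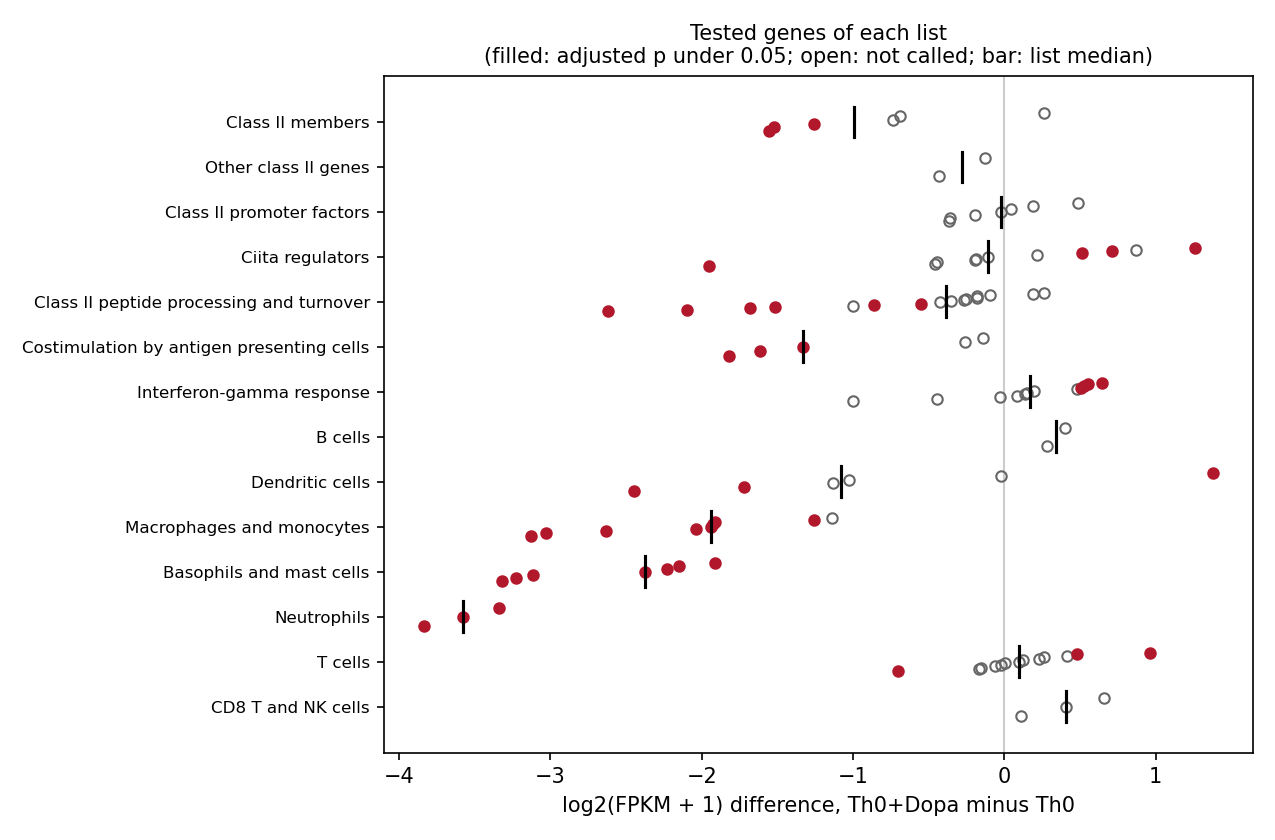
Difference in log2(FPKM + 1), Th0+Dopa minus Th0, of each tested gene in the class II set and in 13 lists, with filled points for calls, open points for genes not called and bars for list medians. Class II members have a median of -0.996, between the medians of the macrophage and monocyte markers (-1.94) and the T cell markers (0.10, or -0.16 under common-sum scaling).

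Among the cells that make class II, markers of macrophages, monocytes and dendritic cells were mostly lower. B cell markers, mostly under the filter, gave no call. The part of these cells in the class II differences was not tested. Macrophage and monocyte markers fell in 8 of 9 tested (median -1.94), where 4.39% of all tested genes fell. Without limma's variance trend 7 of the 9 were called, where 150 of 11423 tested genes fell. With no replicate block 7 were called, where 240 fell. The summed FPKM of all 15 markers was 25.3 and 28.4 in Th0+Dopa and 205.1 and 258 in Th0. C1qa, C1qb and C1qc were listed at 0 in both Th0+Dopa libraries and at most 0.844 FPKM in Th0. Csf1r had 0.280 and 0.199 FPKM in Th0+Dopa and 3.12 and 4.37 FPKM in Th0. Cd68 had 0.551 and 1.36 FPKM in Th0+Dopa and 5.33 and 8.73 FPKM in Th0. Tyrobp had 5.39 and 4.96 FPKM in Th0+Dopa and 34.5 and 40.4 FPKM in Th0. Lyz2, the lysozyme of macrophages and granulocytes, supplied 121 and 136 FPKM of the Th0 sums. Over the same libraries the sum of H2-Aa, H2-Ab1 and H2-Eb1 was 1.82 and 1.64 times the macrophage sum in Th0+Dopa, against 0.642 and 0.526 times in Th0, so it was lower by less than those markers.

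Of 6 tested dendritic cell markers 2 fell and 1 rose (4.39% and 6.28% over all tested genes), with a median of -1.08. Itgax, which encodes CD11c, had 0.764 and 0.949 FPKM in Th0+Dopa and 4.55 and 5.72 FPKM in Th0 and fell by 1.72 ± 0.26 (limma adjusted p = 0.0168). The chemokine gene Ccl22 fell by 2.45 ± 0.22, while Batf3, a factor that activated T cells also express, rose by 1.38 ± 0.23. Batf3 was not called once GC content and length were corrected for (0.78 ± 0.20, adjusted p = 0.0972). The actin bundler Fscn1 (-1.03 ± 0.24, adjusted p = 0.0523) and the lectin Clec10a (-1.13 ± 0.41, adjusted p = 0.147) were lower without passing. Flt3 and Zbtb46, under the filter, were each also lower in both Th0+Dopa libraries than in either Th0 library, together at 0.127 to 0.549 FPKM against 0.538 to 1.78 FPKM in Th0. The markers of subsets Xcr1, Clec9a and Siglech were at or under 0.482 FPKM in every library and Cd209a was listed at 0 in all 4. The summed FPKM of the 12 markers was 98.3 and 68.2 in Th0+Dopa and 120.3 and 133 in Th0. Cst3, made by many cell types, was 46.6 to 74.9 of that sum. The class II chain sum was 0.469 and 0.681 times the dendritic cell sum in Th0+Dopa and 1.09 and 1.02 times in Th0.

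B cell markers gave 0 calls in limma among 2 tested, of which Ighm had an unadjusted p under 0.05. Ms4a1, Cd79a and Cd22 were at or under 0.342 FPKM in all 4 libraries. Cd79b had 2.99 and 4.09 FPKM in Th0+Dopa and 2.205 and 3.30 FPKM in Th0. Pax5, a B cell factor, was listed at 0 and 0.242 FPKM in Th0+Dopa and at 0 and 1.73 FPKM in Th0, and Blnk reached 0.192 FPKM in Th0+Dopa and 0.485 FPKM in Th0. The summed FPKM of the 11 markers found was 22.2 and 25.6 in Th0+Dopa and 15.5 and 22.0 in Th0, most of it from Ighm (18.1 and 19.9 in Th0+Dopa, 12.5 and 16.0 in Th0). The class II chain sum was 2.08 and 1.81 times the B cell sum in Th0+Dopa and 8.47 and 6.15 times in Th0.

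Basophil and mast cell markers fell in all 7 tested (Mcpt8, Cpa3, Prss34, Ms4a2, Fcer1a, Cd200r3 and Hdc). Their sums over 9 markers were 47.3 and 43.6 FPKM in Th0+Dopa and 373 and 497 FPKM in Th0. Of the 7, 5 were called without limma's variance trend and 6 with no replicate block. Neutrophil markers fell in all 3 tested, S100a8, S100a9 and Mpo (5.84 and 6.67 FPKM summed in Th0+Dopa, 91.6 and 122 FPKM in Th0). Over all tested genes 4.39% fell and 6.28% rose. Among 13 T cell markers 2 rose and 1 fell, with a median of 0.10. Under common-sum scaling 1 was called higher and 2 lower, with a median of -0.16. Over all 11423 tested genes that scaling called 376 higher and 1064 lower. Without limma's variance trend 0 of the 13 were called, and with no replicate block 1 was called higher and 0 lower. Over all tested genes these fits called 106 higher and 150 lower, and 256 higher and 240 lower. Trac, the constant gene of the T cell receptor alpha chain, had 274 and 325 FPKM in Th0+Dopa and 450.3 and 526 FPKM in Th0 and fell by 0.70 ± 0.10 (limma adjusted p = 0.0148). Cd5 rose by 0.96 ± 0.10 (adjusted p = 0.00623), and the receptor subunit gene Cd3d by 0.48 ± 0.10 (adjusted p = 0.0398), a call not made under common-sum scaling (0.23 ± 0.11, adjusted p = 0.223). Cd4 had 115 and 119.8 FPKM in Th0+Dopa and 122 and 123 FPKM in Th0 (-0.06 ± 0.10, limma adjusted p = 0.749). CD8 T and NK cell markers gave no call among 3 tested, with sums over 6 markers of 16.5 and 20.8 FPKM in Th0+Dopa and 13.5 and 16.8 FPKM in Th0, and Ncr1 was listed at 0 in all 4 libraries.

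The genes most like the class II chains and Cd74 were sought around the mean profile of H2-Aa, H2-Ab1, H2-Eb1 and Cd74. Each gene's mean log2 value was taken off first. The 8 tested protein-coding genes at the smallest Euclidean distance from that mean over the 4 libraries were kept, with members left out. They were Plxnc1, Rtp4, mt-Co3, Ndrg1, Filip1l, Ms4a6d, Spin4 and Akr1c12, at distances of 0.0662 to 0.120, where the median of 10147 genes was 1.32. Plxnc1, a semaphorin receptor, had 2.48 and 2.96 FPKM in Th0+Dopa and 7.13 and 8.05 FPKM in Th0. Over 4 libraries this likeness mainly restates a difference of about the same size, from -1.34 to -1.16 for the 8 genes, of which Rtp4 was not called (limma adjusted p = 0.0559). Among them mt-Co3 is a mitochondrial gene, and the mitochondrial share differed between the groups as given above.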

How the data were processed

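FPKM values were deposited by the authors in 2 tables made separately, 1 for the libraries numbered 2 and 1 for those numbered 3. Per the labels' protocols, total RNA was depleted of ribosomal and globin RNA with a stranded kit. The submitters' processing notes list Cufflinks 2.2.1, STAR 2.4.2, Trimmomatic 0.35 and mm10. No source used here gives the annotation, normalization options or use of strand.

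Genes were named with GENCODE M21 (36423 of 38282). Those with a mean of at least 1 FPKM over the 4 libraries were tested on log2(FPKM + 1) with limma 3.58.1 under R 4.3.3 (lmFit, then eBayes with a variance trend). The model had a term for the table, which is also the replicate number. The test was two-sided with Benjamini-Hochberg adjustment. Each gene has 1 residual degree of freedom, to which the prior adds 4.70. Fold changes on this scale understate those of low genes. The labels do not say whether libraries are from separate cultures or mice. The p-values therefore reflect only the spread among these samples, possibly technical.

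Depth was estimated. Low values of genes with 1 transcript fell near whole multiples of 1 fragment (78.4% to 82.3% within 0.15 fragment of a whole number), 1 fragment on 1 kb being worth 0.158 to 0.210 FPKM. Fragments behind a gene were estimated from this and its mean transcript length. They are approximate.

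The members and lists were chosen with earlier results of these data known. All 7 members are named, and of each pathway list the genes called or up to 6. Cell type marker lists fell outside this rule, and the markers named from them were chosen with their values seen. Of the listed names, H2-Ea, Gbp5, Ighd, Marchf1 and Marchf8 matched no gene. March1 and March8 are the older symbols of the last 2. Some genes of the lists are counted but not reported here by name.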

Additional observations from a re-analysis of the deposited data

How the results depend on the processing

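The number of genes called, 1218 as reported, was 740 with no filter on low values, 756 after the GC and length correction, 256 without limma's trend and 496 with no replicate block. It was 0 to 22 in fits that left out 1 library. These had no block, took median-of-ratios scaling, and assumed the lone library of a group to vary like the others. Of the class II members, 3 were called as reported, and 5 with small RNA and mitochondrial genes left out before scaling to a common sum. In that setting 1256 of 11184 tested genes were called lower, against 501 of 11423 as reported. Members called numbered 4 with a pseudocount of 0.1 or 0.01, a filter at 5 FPKM, a common sum or the median of ratios. Without limma's trend 2 were called, where 150 of 11423 tested genes were called lower. Without single libraries the fall ranged over -1.73 to -1.42 for H2-Aa, -1.71 to -1.39 for H2-Ab1 and -1.38 to -1.18 for H2-Eb1. H2-Eb1 (-1.26) was not called without the trend. Cd74 was called at -0.75 and -0.76 with pseudocounts of 0.1 and 0.01, -0.69 with a filter at 5 FPKM, -0.92 with a common sum, -0.72 with the median of ratios and -0.90 with small RNA and mitochondrial genes left out first, where H2-DMb1 was called too (-0.91). Calls in the lists of other genes that were lost without the trend include Socs1, Irf8, Irf4, Ctsh, Ctsz, Cd83, Cd80 and Batf3. Trac, Cd5, Cd3d, Gbp4, Igtp, Irgm1 and Tap2 were lost there too, as were the markers Ccr2, Fcer1a and Hdc. Cd200r3 was lost with no replicate block. None of the 6 tested members changed sign under the alternatives that gave it a value. H2-DMb1 has none with a filter at 5 FPKM, and Ciita has a value only with no filter. Same-numbered libraries' deviations from their group means correlated at 0.087 across genes, so the number is known to mark the table, and no further pairing was shown. With no replicate block the 3 chain genes kept their calls (adjusted p = 0.0114 to 0.0189). The cause of these changes was not tested. The values of H2-DMb1 and Ciita rest on few fragments, which limits their precision.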
